A study of Mus musculus with 3 samples.

Results

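The genes described here encode the kinases of the mitogen-activated protein (MAP) kinase cascades, the kinases these activate, and the dual-specificity phosphatases (DUSPs). They were taken as every non-control probe whose gene name on the array is a numbered Mapk, Map2k, Map3k, Map4k or Dusp gene, a Mapkapk gene or a numbered Rps6ka gene. This gave 118 of 55681 probes and 73 of 22340 genes: 13 MAP kinases, 7 MAP kinase kinases (MAP2K), 15 MAP3K, 5 MAP4K, 9 effector kinases and 24 DUSP genes. All 118 probes were joined by their accession to the RefSeq gene of the same symbol.

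The RNA came from primary cultures of cerebrum from C57BL6/J mice at embryonic day 18, treated on day 10 in vitro for 24 h. One culture sample received 1 mM valproate, an anticonvulsant that also inhibits class I histone deacetylases, and another received 100 µM lamotrigine, an anticonvulsant that acts on sodium channels. The control received the solvent, DMSO, and the labels give 0.1% DMSO for all 3 samples. Each treatment was measured on 1 single-colour Agilent array, so there was no replicate check, and no p-value can be given for any difference below. The study's stated comparison was valproate against DMSO.

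In a MAP kinase cascade a MAP3K phosphorylates a MAP2K, which phosphorylates and activates a MAP kinase; MAP4K enzymes act upstream of some MAP3K. The ERK branch answers mainly to growth factors and neuronal activity, and the JNK and p38 branches mainly to stress and cytokines. MAP kinase phosphatases, a subgroup of the DUSPs, remove the activating phosphates, and several are themselves induced by ERK signalling as negative feedback. In neurons these cascades take part in synaptic plasticity, survival and the response to injury.

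Levels are given as scaled signal, the spot intensity relative to the 75th percentile of the same array, which is set to 100. Differences are on the log2 scale, and a probe's level says nothing about that of another probe. The technical SD of a difference was computed from probes printed 10 times on each array, within ranges of signal. Of 399 such probes, 285 on the valproate, 265 on the DMSO and 268 on the lamotrigine array had at least 5 usable spots. In the range under 25 there were 53, 34 and 40. The technical SD covers the spread among spots of the same array. Spread between arrays, from hybridisation or scanning, and spread between cultures are not in it and were not measured.

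The largest difference among these genes was in the p38 family, whose 4 kinases lie as neighbouring pairs. Mapk14 (p38 alpha) and Mapk13 (p38 delta) are adjacent on chromosome 17, and Mapk12 (p38 gamma) and Mapk11 (p38 beta) on chromosome 15, in RefSeq's table for GRCm38.p6. Mapk13 and Mapk12 were over 2-fold higher on the valproate array than on the DMSO array, and their neighbours differed by 0.04 and 0.10 on the log2 scale. The sequences before the starts of Mapk13, Mapk14 and Mapk11 are shown because neighbours in each pair gave such different values, 5′ to 3′ on the gene's own strand, from RefSeq's promoter table. Capitals mark GC boxes (GGGCGG on either strand).
Mapk13, chr17:28769067-28769285, plus strand: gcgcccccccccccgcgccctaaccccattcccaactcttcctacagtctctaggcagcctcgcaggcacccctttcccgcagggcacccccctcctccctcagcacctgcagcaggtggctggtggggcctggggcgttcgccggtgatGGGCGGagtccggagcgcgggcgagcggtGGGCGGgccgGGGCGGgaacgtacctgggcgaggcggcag
Mapk14, chr17:28691092-28691341, plus strand: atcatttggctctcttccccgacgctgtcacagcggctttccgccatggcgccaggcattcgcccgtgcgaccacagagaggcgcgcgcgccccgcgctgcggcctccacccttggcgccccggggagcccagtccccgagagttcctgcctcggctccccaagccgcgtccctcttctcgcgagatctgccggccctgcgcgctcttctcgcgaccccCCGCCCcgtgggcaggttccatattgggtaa
Mapk11, chr15:89149607-89149856, minus strand: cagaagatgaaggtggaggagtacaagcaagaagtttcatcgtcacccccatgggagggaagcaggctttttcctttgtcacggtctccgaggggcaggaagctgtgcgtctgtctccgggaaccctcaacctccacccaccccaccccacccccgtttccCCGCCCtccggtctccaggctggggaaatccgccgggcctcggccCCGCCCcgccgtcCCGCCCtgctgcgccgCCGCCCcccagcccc
The Mapk13 stretch ends where the longest gene model begins and so has 219 bases, against 250 for the others. Mapk13 had 3 GC boxes in it, Mapk14 had 1 and Mapk11 had 4. Over full windows of 300 bases, which include the first transcribed bases, Mapk13 had 5, Mapk14 had 1 and Mapk11 had 4. A second Mapk14 window, inside its gene model, had 0. The window before the listed start of Mapk12 lies inside a longer gene model and is not printed. With its first transcribed bases it held 1 GC box and 1 E-box (CACGTG).

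The promoter table had windows of 300 bases, 250 before to 50 after a start, for 58 of the 73 genes, 76 windows in all. A GC box was in 60.5% of these windows and in 35.7% of all 32851 windows. The median G and C content was 62.7% against 52.7% in all windows. The core of the cyclic AMP response element, TGACG, was in 34.2% against 20.8%. The E-box CACGTG was in 7.89% against 7.15%, and the AP-1 site TGANTCA in 6.58% against 7.81%. Motifs were sought on both strands, and a match is a description of the letters only.

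The 3 arrays were on 1 slide. The 75th percentile of the processed signal was 478 for valproate, 372 for DMSO and 388 for lamotrigine. From 49.6% to 52.9% of the spots of an array were well above background, and 0 spots were saturated. The lowest signal well above background, the detection floor, was 3.88 to 5.29 in scaled signal. Neuron and astrocyte markers were all detected on all 3 arrays, 8 of 8 for each list. The summed scaled signal of the astrocyte markers was 20774 with valproate, 40874 with DMSO and 40178 with lamotrigine. Most of the lower sum with valproate came from Aldoc, with 10073, 25995 and 25605 in the same order. The median log2 difference of this list with valproate was -0.50, with 7 of 8 below 0, and Gfap had 0.06. For neuron markers the sums were 22494, 30266 and 26552 in the same order. Tubb3 had 3996, 7649 and 6399, and Stmn2 had 9776, 12623 and 11174. The median log2 difference of the neuron list with valproate was -0.32, with 5 of 8 below 0 (58.1% of all genes). The 3 above 0 were Nefm (0.60), Snap25 (0.17) and Nefl (0.15). The microglia and macrophage list summed to between 1448 and 1602, with Cx3cr1, Tyrobp, C1qa, P2ry12 and Ptprc not detected on any array. Most of that sum was Itgam, with 1438 on the valproate, 1264 on the DMSO and 1398 on the lamotrigine array. Oligodendrocyte lineage markers summed to between 4124 and 4630, with Olig1 the brightest. Their valproate differences from DMSO ran from -3.75 (Gpr17) to 0.60 (Mbp), with 7 of 10 below 0 and 3 above. Mag was not well above background with valproate, a bound of -1.35. Fibroblast and meningeal markers summed to between 7635 and 9569, and endothelial and mural markers to between 776 and 951. Most of the endothelial and mural sum was Kdr, with 762 with valproate, 665 with DMSO and 839 with lamotrigine. Flt1 was well above background with valproate alone, a bound of 2.37 over DMSO. In such bulk RNA, fewer cells of a type and less RNA per cell cannot be told apart. The part of these cell type differences in the results below was not tested.

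Of the 73 genes, 67 were detected on both the valproate and the DMSO array. Of these, 4 were at least 2-fold higher with valproate (5.97%), against 2.09% over the whole array by the same count. They were Mapk13, Mapk12, Dusp23 and Map3k15. A single gene, Dusp13, was at least 2-fold lower (1.49%), against 1.42% of all genes. At 1.5-fold, 9 were higher (13.4%, against 6.24% of all genes) and 2 were lower (2.99%, against 5.95%). By these small counts the share of higher genes lay above the background and that of lower genes at or below it. Mapk13 and Map3k15 were dim with DMSO. With the normexp background correction described below they had 0.98 and 0.25, under 2-fold. The median difference over the 70 genes measured on at least 1 of the arrays was 0.03, and over all genes it was -0.07. The SD across members detected on both arrays was 0.50, and across all genes 0.42.

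With lamotrigine the differences from DMSO were smaller, with an SD across members of 0.20 and across all genes of 0.21. None of the 66 genes detected with both lamotrigine and DMSO was 2-fold apart, where 0.0976% of all genes were at least 2-fold higher and 0.0628% lower. At 1.5-fold, Mapk15 was higher (1.52% of the members, against 1.11% of all genes) and Dusp4 was lower (1.52%, against 0.76%). These shares are 1 gene each. The median was -0.04 over the members and -0.04 over all genes.

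Valproate and lamotrigine were also compared directly. Of 67 members seen on each of these arrays, 2 exceeded lamotrigine 2-fold or more with valproate (2.99%, against 2.06% of all genes) and 0 were 2-fold lower (1.69% of all genes). These were Mapk12 and Dusp23. At 1.5-fold, 7 were higher (10.4%, against 6.17%) and 3 were lower (4.48%, against 5.84%). Mapk13 was not well above background with lamotrigine, and its own signal there, 6.02, was used for the bound. Its valproate signal was 7.21-fold that value, which is not a strict lower limit. The log2 difference of 2.85 fell to 1.20 with the normexp background correction described below. Counting such bounds, 2.65% of all genes were 2-fold higher. The DMSO array is shared by both drug comparisons, so their values are given side by side and not as independent evidence.

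**Figure D1:**
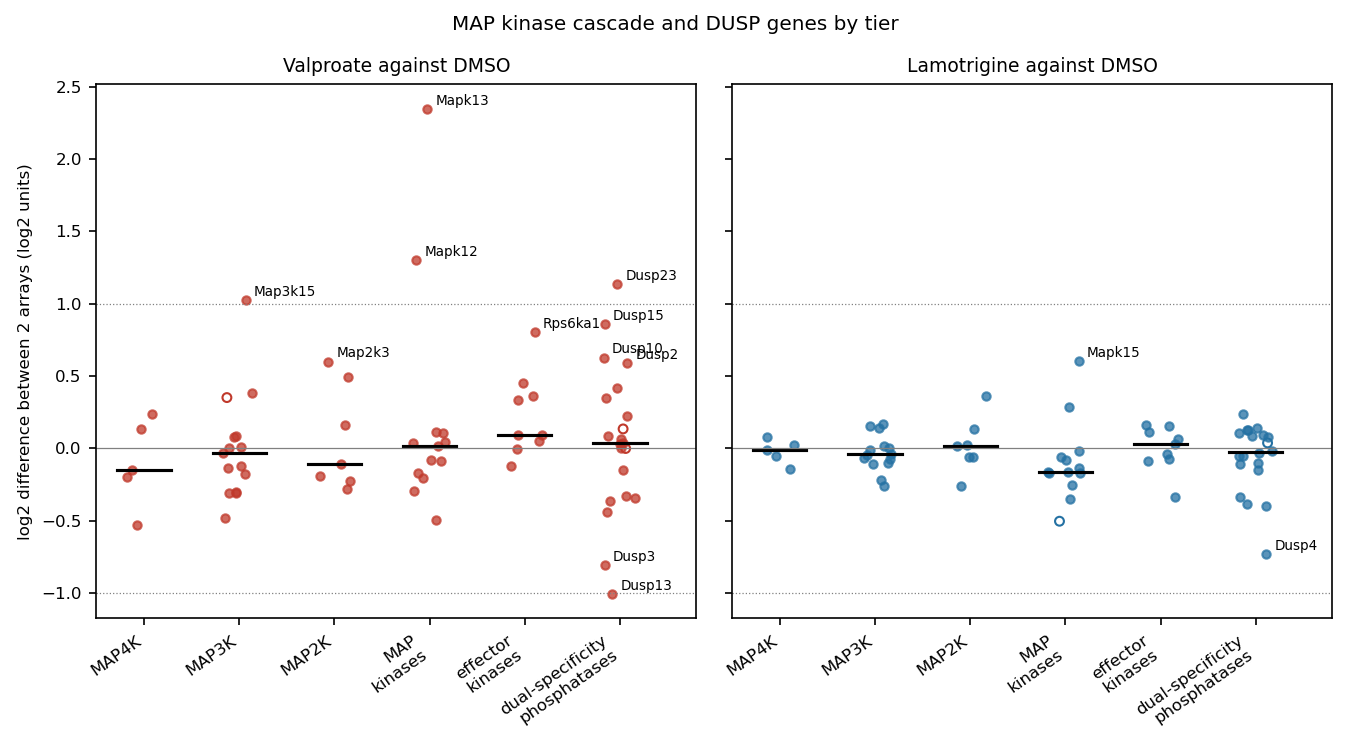
Log2 difference of each gene against DMSO, by tier, for valproate (left) and lamotrigine (right); filled points were detected on both arrays, open points are bounds, black lines are tier medians, and dotted lines mark 2-fold. Named points are at least 1.5-fold apart: 9 above and 2 below 0 for valproate, 1 above and 1 below for lamotrigine.

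The p38 MAP kinases gave the largest difference among the members. Mapk13 had a scaled signal of 43.4 with valproate, 8.53 with DMSO and 6.02 with lamotrigine, where it was not well above background. The valproate array was high and the other two were close to the detection floor. The log2 difference of valproate against DMSO was 2.35 (technical SD 0.19), a fold of 5.09. With the normexp background correction, which adds an offset to every signal and so shrinks differences of dim probes, it was 0.98. Its probe lies at 17:28915417-28915476 (mm9, plus strand).

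Mapk12 had 129 with valproate, 52.4 with DMSO and 64.0 with lamotrigine. Valproate was again the high array, and lamotrigine lay slightly above DMSO. The valproate difference was 1.30 (technical SD 0.10; 2.46-fold) and stayed between 1.00 and 1.65 over the alternatives tried. The lamotrigine difference was 0.29 (technical SD 0.12). Its probe lies at 15:88961267-88961326 (mm9, minus strand).

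The other p38 kinases were near their DMSO level. Mapk14, the most widely expressed p38 kinase in mammalian tissues, had 658, 638 and 603 with valproate, DMSO and lamotrigine. Its valproate difference was 0.04 (technical SD 0.06). A dim second Mapk14 probe, with 6.04 against 9.44, gave -0.65. Mapk11 had 85.5, 79.5 and 70.9, and a valproate difference of 0.10 (technical SD 0.11). The mm9 probe positions were 17:28885290-28885349 (plus strand) for Mapk14 and 15:88973159-88973218 (minus strand) for Mapk11. The Mapk13 and Mapk14 probes are 30.1 kb apart and the Mapk12 and Mapk11 probes 11.8 kb. No pair of the 4 probes shared a run of more than 6 bases.

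The MAP2K that feed p38 were both higher with valproate. Map2k3 had 46.1 with valproate, 30.4 with DMSO and 39.1 with lamotrigine. The order was valproate, lamotrigine, DMSO, with differences from DMSO of 0.60 (technical SD 0.11) and 0.36 (technical SD 0.12). The normexp correction gave 0.34 for valproate. Map2k6 had 160, 113 and 115, so that valproate alone stood apart, by 0.50 (technical SD 0.08). All 6 p38 kinases and their MAP2K thus had a valproate difference above 0, with a median of 0.55, except that Mapk14 became -0.30 when its probes were averaged.

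Below p38 act the MAPKAP kinases, which phosphorylate heat shock and RNA-binding proteins. Mapkapk3 had 205 with valproate, 159 with DMSO and 172 with lamotrigine, a valproate difference of 0.36 (technical SD 0.08). Mapkapk2 and Mapkapk5 had 0.09 and -0.01, both about the size of their technical SDs of 0.08 and 0.06. Over the 9 genes of the p38 branch the valproate median was 0.36, with 8 of 9 above 0 (40.5% of all genes), and the lamotrigine median was 0.02. The valproate median was 0.23 when genes had to be detected on all 3 arrays, which leaves out Mapk13.

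**Figure D2:**
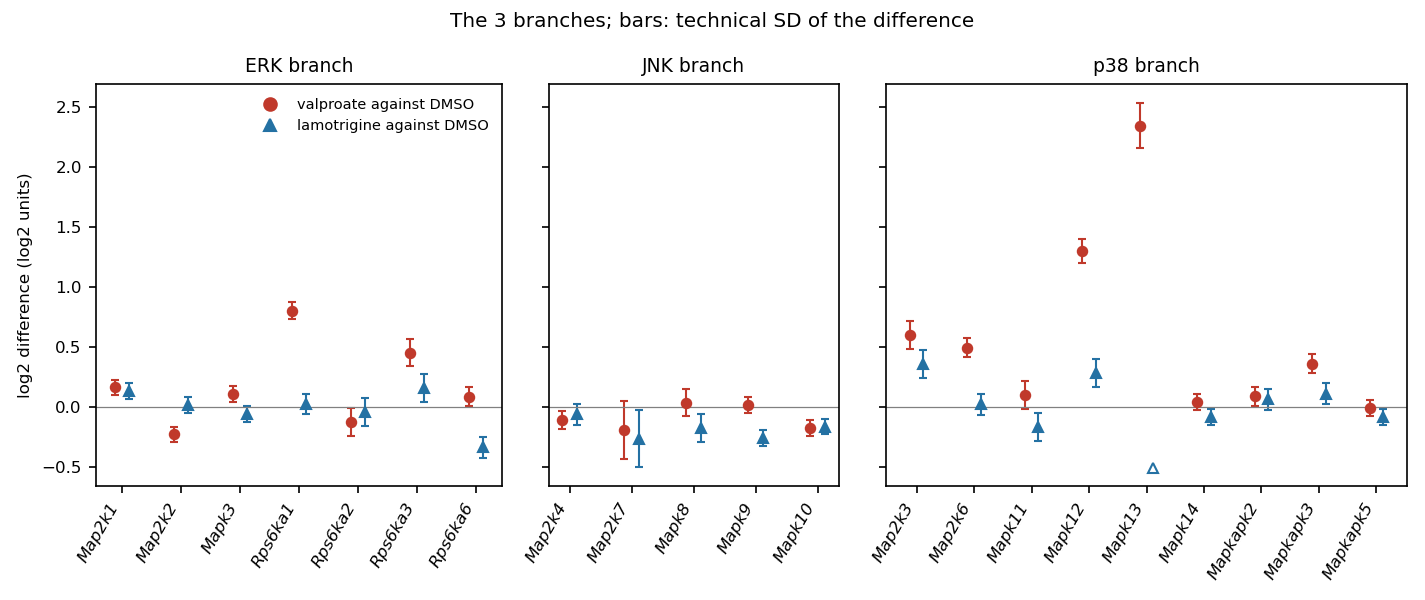
Log2 difference against DMSO for genes of the ERK, JNK and p38 branches, valproate as red circles and lamotrigine as blue triangles; bars are the technical SD of a difference, and the open triangle is a bound. Mapk13 (2.35) and Mapk12 (1.30) lie above the other genes of the p38 panel, and the JNK panel spans -0.26 to 0.04.

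The ERK branch genes given here did not share a direction with valproate. Mapk3 (ERK1) had 1927 with valproate, 1784 with DMSO and 1716 with lamotrigine, with a valproate difference of 0.11 (technical SD 0.06). For the MAP2K of this branch, Map2k1 (MEK1) had 0.17 and Map2k2 (MEK2) had -0.22 with valproate. Spike-in scaling, which adds 0.35 to every valproate difference and 0.20 to every lamotrigine difference from DMSO, turned the sign of Map2k2 with valproate.

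The ribosomal S6 kinases of the RSK group, which ERK activates, had valproate differences from -0.12 to 0.81 by the probes used. Rps6ka1 (RSK1) had 655 with valproate, 375 with DMSO and 382 with lamotrigine. The valproate array was high and the other two did not differ beyond the technical spread. The difference was 0.81 (technical SD 0.07; 1.75-fold) and stayed between 0.80 and 1.16 over the alternatives. Rps6ka3 (RSK2) had 52.2, 38.1 and 42.5, a valproate difference of 0.46 (technical SD 0.11). Its lamotrigine difference of 0.16 was the highest of the effector kinases by the probes used, and a dimmer probe gave -0.02. Rps6ka2 (RSK3) had -0.12 with valproate, about its technical SD of 0.11, by a probe at 17:13525609-13525668 (mm9). Its dimmer second probe, at 17:7460229-7460288 (mm9), gave 0.39 with valproate and 0.37 with lamotrigine. The promoter window of Rps6ka2 begins at 17:7169865 (GRCm38.p6), far from the probe used. Whether that probe measures Rps6ka2 was not tested. Rps6ka6 (RSK4) had 142 with valproate, 133 with DMSO and 106 with lamotrigine, so that lamotrigine was the low array, by -0.33 (technical SD 0.09). A dim second probe gave -0.38 with valproate, against 0.09 by the probe used. The MSK kinases, which phosphorylate histone H3 and CREB and lie below both ERK and p38, had valproate differences of 0.05 (Rps6ka4) and 0.34 (Rps6ka5).

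The JNK branch stayed within a narrow range. Mapk8 (JNK1) had 50.7 with valproate, 49.4 with DMSO and 43.9 with lamotrigine, a valproate difference of 0.04 against -0.09 by another probe. Mapk9 (JNK2) had 1059, 1045 and 877, with lamotrigine the low array at -0.25 (technical SD 0.07). A second Mapk9 probe gave 0.14 for lamotrigine, so the probes disagreed in sign. Mapk10 (JNK3), the form enriched in neurons, had 2895, 3263 and 2919, or -0.17 with valproate and -0.16 with lamotrigine. Its second probe gave 0.29 and 0.19.

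Of the JNK-directed MAP2K, Map2k4 had 145, 156 and 150, or -0.11 with valproate and -0.06 with lamotrigine. Map2k7 had 15.8, 18.1 and 15.1, or -0.19 and -0.26, about its technical SD of 0.24. The JNK branch median was -0.11 with valproate and -0.17 with lamotrigine. With spike-in scaling these became 0.24 and 0.03.

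The remaining MAP kinases included 1 difference of over 1.5-fold. Mapk6 (ERK3) had 433 with valproate, 610 with DMSO and 479 with lamotrigine, with differences from DMSO of -0.50 (technical SD 0.06) and -0.35 (technical SD 0.07). Its other probes were dimmer, and gave -0.35 and a bound of 0.41 with valproate and -0.05 and a bound of 0.65 with lamotrigine. Averaging the detected probes turned the lamotrigine difference to 0.09. Mapk7 (ERK5) had 1191, 1266 and 1128, and its activator Map2k5 had 1105, 1343 and 1290. Their valproate differences were -0.09 and -0.28. Mapk4 (ERK4) had 46.3, 53.3 and 52.7.

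Mapk15 (ERK7, also called ERK8), an atypical kinase linked to primary cilia and autophagy, was the highest of the members with lamotrigine. It had 5.69 with valproate, 6.0 with DMSO and 9.13 with lamotrigine. All these signals are close to the detection floor. The lamotrigine difference was 0.61 (technical SD 0.24) and 0.09 with the normexp correction. Its probe is shown because it crosses an exon junction, its 60 bases lying within 167 bases of genome at 15:75828671-75828837 (mm9, plus strand).
Mapk15 probe: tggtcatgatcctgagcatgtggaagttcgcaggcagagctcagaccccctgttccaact

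Among the MAP3K, Map3k15 (ASK3), a relative of the stress-responsive ASK1, was the highest with valproate. It had 17.2 with valproate, 8.47 with DMSO and 9.35 with lamotrigine, a difference of 1.03 (technical SD 0.24; 2.04-fold). Valproate was high and the others overlapped within the technical spread. The normexp correction gave 0.25. Its probe also crosses an exon junction, its 60 bases lying within 131 bases at X:156560393-156560523 (mm9, plus strand).
Map3k15 probe: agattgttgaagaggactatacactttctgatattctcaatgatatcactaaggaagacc

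Map3k1 (MEKK1) was the lowest MAP3K with valproate, with 322, 449 and 428 in the order valproate, DMSO and lamotrigine. Its difference was -0.48 (technical SD 0.07), and a second probe gave -0.48. Map3k12 (DLK), a kinase of the neuronal injury response, had 33.9, 41.8 and 34.9, low with both drugs at -0.30 and -0.26 (technical SDs 0.11 and 0.12). It was the lowest MAP3K with lamotrigine. Map3k13 (LZK), its close relative, was the highest with lamotrigine at 0.17 (technical SD 0.19), which is within the technical spread. Map3k5 (ASK1) had -0.18 with valproate by its brighter probe and 0.68 by its dimmer one. Map3k8 (TPL2) was well above background with valproate alone, which gives a bound of 0.35 over DMSO. The tier's median was -0.03 with valproate and -0.04 with lamotrigine, and 7 of 15 genes lay above 0 with valproate.

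The MAP4K tier held 5 genes. Map4k4, a kinase upstream of JNK that also acts in axon degeneration, had 1981 with valproate, 2861 with DMSO and 2594 with lamotrigine. It was the lowest of the tier in both drugs, at -0.53 (technical SD 0.06) and -0.14 (technical SD 0.07), and its second probe gave -0.11 and 0.06. Map4k2 was the highest in both, at 0.24 and 0.08 (technical SDs 0.11 and 0.12). Map4k1, Map4k3 and Map4k5 had valproate differences of 0.14, -0.20 and -0.15.

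**Figure D3:**
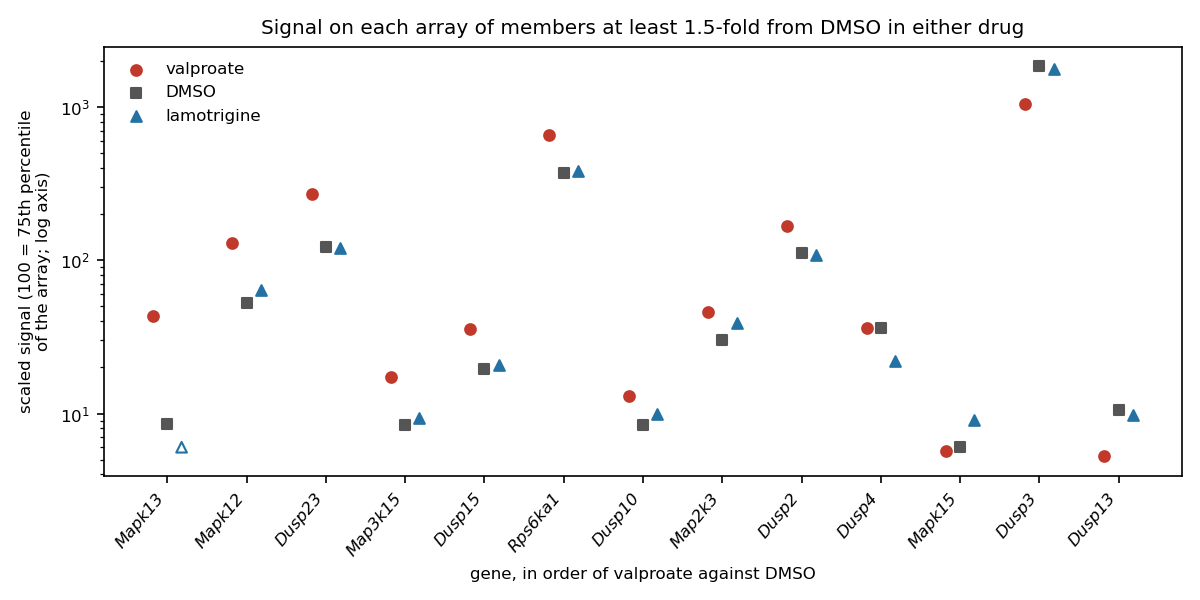
Scaled signal on each of the 3 arrays (log axis; 100 is the 75th percentile of the array) for the 13 genes at least 1.5-fold from DMSO in either drug; the open triangle was not well above background. The valproate point lies above the other two for the 9 genes from Mapk13 to Dusp2, lamotrigine is the low point for Dusp4 and the high one for Mapk15, and valproate is the low point for Dusp3 and Dusp13.

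Among the phosphatases, the atypical DUSPs showed the widest range with valproate. Dusp23, a small phosphatase of broad specificity, had 271 with valproate, 123 with DMSO and 120 with lamotrigine. The valproate array was high and the others were alike within 0.03. The difference was 1.14 (technical SD 0.08; 2.20-fold) and was at least 1.07 in every alternative tried. Dusp15 had 35.5, 19.6 and 20.6, a difference of 0.86 (technical SD 0.19), but its second probe gave 0.17.

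Dusp3 (VHR), which dephosphorylates ERK and JNK, was low with valproate. It had 1056 with valproate against 1844 with DMSO and 1775 with lamotrigine, a difference of -0.80 (technical SD 0.06; 1.75-fold lower). A second probe gave -0.69. Dusp13 had 5.26, 10.6 and 9.83, a difference of -1.01 (technical SD 0.24), with the valproate signal close to its floor. It was between -1.01 and -0.52 over the alternatives.

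The nuclear MAP kinase phosphatases did not move as a group. Dusp2 (PAC-1) had 169 with valproate, 112 with DMSO and 108 with lamotrigine, a valproate difference of 0.59 (technical SD 0.08). Dusp1 (MKP-1), an immediate early gene, had 68.6, 93.1 and 99.3, so that valproate was the low array at -0.44 (technical SD 0.11). Dusp4 (MKP-2) had 36.3, 36.2 and 21.9. Here lamotrigine was the low array, by -0.73 (technical SD 0.18; 1.66-fold lower), and valproate equalled DMSO. Its lamotrigine difference was between -0.75 and -0.49 over the alternatives. Dusp5 was well above background with valproate alone, at 4.94, which lies below the floor of the DMSO array.

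Of the cytoplasmic phosphatases that prefer ERK, Dusp6 and Dusp7 were low with lamotrigine by the probes used. Dusp6 (MKP-3), a feedback inhibitor of ERK, had 796 with valproate, 760 with DMSO and 583 with lamotrigine, a lamotrigine difference of -0.38 (technical SD 0.07). Dusp7 had 106, 134 and 102, low with both drugs at -0.34 and -0.39, though its second probe gave -0.01 for lamotrigine. With spike-in scaling both stayed below 0, since the shift is 0.20. Dusp9, also of this group, was not well above background on any array. Outside the group, Dusp12 had -0.34 with lamotrigine, and -0.07 by its second probe. Over the whole DUSP tier, 11 genes lay below 0 with lamotrigine and 9 above.

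The phosphatases that prefer JNK and p38 were Dusp8, Dusp10 and Dusp16. Dusp10 (MKP-5) had 13 with valproate, 8.41 with DMSO and 9.93 with lamotrigine, a valproate difference of 0.63 (technical SD 0.24) that became -0.05 with the normexp correction. Its lamotrigine difference of 0.24 was the highest of the phosphatases and equalled its technical SD. Dusp8 and Dusp16 had -0.15 and 0.04 with valproate. Dusp21 and Dusp27 were not detected on any array. The remaining atypical DUSPs, Dusp11, Dusp12, Dusp14, Dusp18, Dusp19, Dusp22, Dusp26 and Dusp28, had valproate differences from -0.36 (Dusp12) to 0.42 (Dusp28).

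Genes with several probes allowed a check within the arrays. For valproate against DMSO, 34 further probes of these genes were detected on both arrays, 23 had the sign of the probe used, and 6 were over 0.5 apart from it. For lamotrigine, 16 of 33 had the same sign and none was over 0.5 apart. Mapk11, Mapk12, Mapk13, Dusp23, Map3k15, Rps6ka1, Dusp2, Dusp4, Dusp6, Dusp10 and Map2k3 had 1 probe each and could not be checked in this way.

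Other genes of the pathway were read from lists. Among the activators of Ras and the Raf kinases, 19 of 21 genes were measured, with 2 at least 1.5-fold higher and 1 lower with valproate and a median of -0.12. Over all genes, 6.24% were higher and 5.95% lower by this measure and the median was -0.07, so counts this small are near the background, here and in the lists that follow. Rasgrf1, a calcium-regulated activator of Ras in neurons, was 0.91 higher and Rasgrp1, a diacylglycerol-regulated activator, 0.74 higher. Mras was the low gene at -0.67. With lamotrigine the median was -0.10, and Rasgrp2 (-0.59) was the gene at least 1.5-fold lower. Rasgrp1 had -0.53.

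Inhibitors of Ras and ERK had medians of -0.10 with valproate and -0.16 with lamotrigine, and none of the 12 detected on both arrays was 1.5-fold apart in either drug. The genes farthest from 0 with valproate were Pebp1 (-0.44), Spred3 (0.39) and Rasa2 (-0.35). Of 16 scaffolds and adaptors, 12 lay below 0 with valproate, as did 58.1% of all genes, with a median of -0.14 that became 0.21 with spike-in scaling. Tab1, a partner of the MAP3K TAK1, had -0.54, and Gadd45a, an activator of Map3k4, had 0.50. The third was Mapk8ip1, a JNK scaffold, at -0.36.

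Other cascade kinases had 1 gene of 12 at least 1.5-fold lower with valproate, Taok1 (-0.78), a MAP3K outside the Map3k names. Mknk1, a kinase below ERK and p38 that phosphorylates eIF4E, had 0.53, and Taok3 had -0.51. For the other MAP kinase phosphatases, such as the neuronal Ptpn5 (STEP), the medians were 0.00 with valproate and -0.13 with lamotrigine, with none 1.5-fold apart. In that list Ppm1d (0.32), Ptpn5 (-0.19) and Ppm1a (0.17) were farthest from 0 with valproate.

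Transcription factors and early genes below the cascades showed no common direction with valproate. Of 27 measured, 10 lay above and 17 below 0 (40.5% and 58.1% of all genes), with a median of -0.15. Egr1 was 0.69 higher and Elk4 had -0.66, the genes past 1.5-fold in each direction; Ier3 had 0.53. With lamotrigine, 21 of 27 lay below 0, as did 58.7% of all genes, with a median of -0.10 that became 0.10 with spike-in scaling.

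Etv4 (-0.61) and Etv5 (-0.60) were the genes at least 1.5-fold lower with lamotrigine. These transcription factors, like Dusp6, are known transcriptional readouts of ERK signalling, and they had -0.33 and -0.36 with valproate. They and Spred2, an inhibitor of Raf activation with -0.34 under lamotrigine, were picked out after their values were seen. Not all such genes were low with lamotrigine: Spry2 had 0.17 and Fos 0.25. The neuron marker sum was also lower with lamotrigine than with DMSO (26552 against 30266), and its part in these values was not tested.

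**Figure D4:**
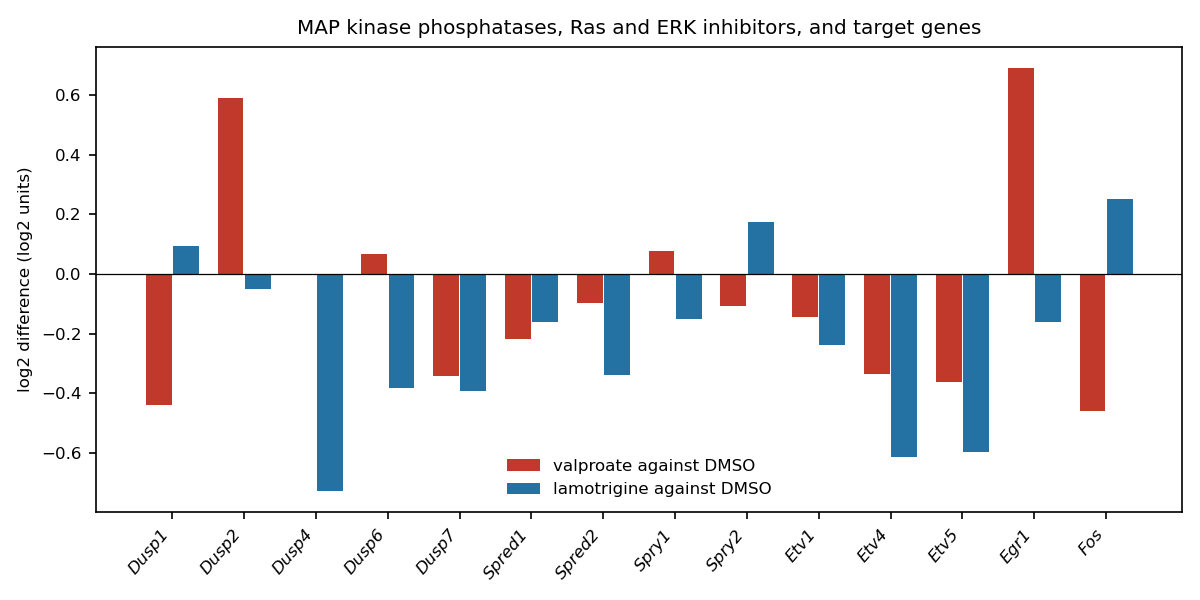
Log2 difference against DMSO for valproate (red bars) and lamotrigine (blue bars) of MAP kinase phosphatases, Ras and ERK inhibitors and target genes, 1 array per treatment, chosen after their values were seen. Dusp4 (-0.73), Etv4 (-0.61) and Etv5 (-0.60) have the longest lamotrigine bars, and Dusp2 (0.59) and Egr1 (0.69) the longest valproate bars above 0.

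**Figure D5:**
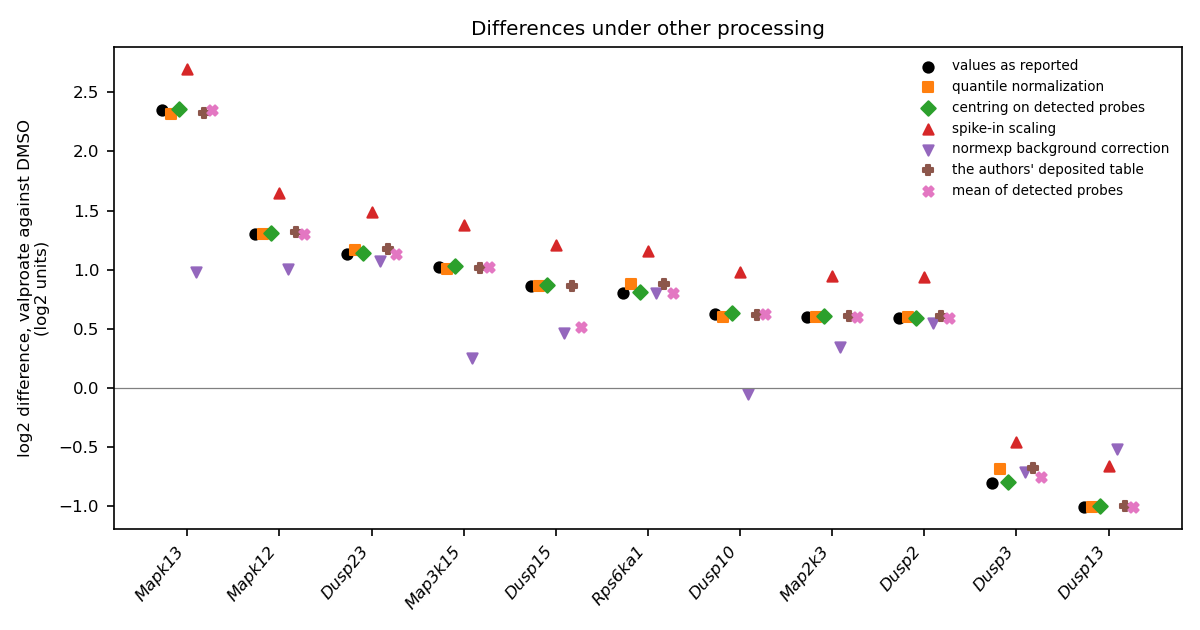
Log2 difference of valproate against DMSO for the 11 genes at least 1.5-fold apart, as reported (black) and under 6 other ways of processing the arrays. Normexp gives the value closest to 0 for the dim probes of Mapk13 (0.98) and Map3k15 (0.25) and turns Dusp10 to -0.05, and spike-in scaling lies above the reported value for each gene.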

How the data were processed

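Per the file headers, the deposited scanner files hold the intensity of each spot read with Feature Extraction 10.7.1.1 (1 colour, Cy3), background-subtracted and detrended within each array and not normalized between arrays; probe positions are on mm9. A table of intensity values that the authors deposited was used as an alternative; how it was made is not given in the sources used here. For each array, log2 of the processed signal minus log2 of the 75th percentile of non-control spots was taken, outlier spots were left out, and spots of 1 probe were averaged. Where a gene had several probes, the one with the highest level, averaged over the 3 arrays, was used. A gene was detected on an array when most of its spots were well above background. Where it was detected on 1 array of a comparison, the other was set to its detection floor or, if higher, its own signal. The difference is then called a bound, and a bound from its own signal is not a strict limit.

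With 1 array per treatment there was no test; genes 2-fold and 1.5-fold apart were counted beside all genes. Precision is limited by the number of arrays. The members, the gene lists and the rule for named genes were chosen with earlier results of these data known. The rule names every MAP kinase and MAP2K gene, members at least 1.5-fold from DMSO on 2 detected sides, members with a bound of at least 2-fold, the extremes of each tier, and up to 3 genes of each other list farthest from 0 with valproate; other members are given by their values. One gene named by the rule is not reported here. Alternatives were quantile normalization, centring on detected probes, spike-in scaling (6 probes), normexp in limma 3.58.1 (offset 50), the deposited table, other filters, averaging all detected probes of a gene, keeping outlier spots, and thresholds of 1.5-fold and 3-fold. Python 3.11.15, pandas 2.3.3 and R 4.3.3 were used, and the scripts were tested on simulated data. Per the labels, RNA was isolated with TRIzol and labelled with a low-input kit.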

Additional observations from a re-analysis of the deposited data

How the results depend on the processing

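Counts at other thresholds and filters moved most. For valproate against DMSO, the 4 genes at least 2-fold higher became 2 with normexp, 6 with spike-in scaling, 8 with no detection filter, 9 at 1.5-fold and 1 at 3-fold. The 1 lower gene became 0 with centring on detected probes, spike-in scaling, normexp, the authors' deposited table and 3-fold, and 2 at 1.5-fold. For valproate against lamotrigine, the 2 higher genes (3 with the Mapk13 bound) became 1 with normexp, 3 with spike-in scaling, 4 with no filter, 7 at 1.5-fold and 0 at 3-fold, and the 0 lower genes became 1 with no filter and 3 at 1.5-fold. For lamotrigine against DMSO, the 0 higher genes became 2 with no filter and 1 at 1.5-fold, and the 0 lower became 1 at 1.5-fold. With spike-in scaling the members' medians became 0.38, 0.16 and 0.23 for valproate against DMSO, lamotrigine against DMSO and valproate against lamotrigine; that scaling shifts all genes by 0.35, 0.20 and 0.15. Dusp10 turned to -0.053 with normexp for valproate against DMSO. Of 111 differences of named genes, 33 had the other sign with spike-in scaling, 12 with normexp, 12 with the mean of detected probes, 6 with the deposited table, 5 with quantile normalization and 0 with centring or with outlier spots kept. Signals under 25 had a technical SD of 0.16 to 0.17 per array, against 0.04 to 0.05 over 400, so dim probes such as Mapk15, Map3k15, Dusp10 and Dusp13 are the least precise. No paired analysis was possible because each treatment had 1 array.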

Other observations

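The genes next to the p38 pairs were read after the values of Mapk12 and Mapk13 were seen. Brpf3, a reader subunit of histone acetyltransferase complexes and the gene beside Mapk13 on the side away from Mapk14, had 35.9 with valproate, 77.7 with DMSO and 75.4 with lamotrigine, a valproate difference of -1.11. Mapk13 and Brpf3 thus differed from DMSO in opposite directions. Hdac10, a histone deacetylase beside Mapk12, had 119.8, 125.1 and 130.6, a valproate difference of -0.06, and Plxnb2, a semaphorin receptor beside Mapk11, had 2808, 2749 and 3254, or 0.03. On both sides of the Mapk12 and Mapk11 pair the immediate neighbours were therefore near their DMSO level with valproate. One gene farther out, Tubgcp6, beyond Hdac10, had a valproate difference of 0.36. The dim Pnpla1, beyond Brpf3, had 5.60 with valproate, 8.49 with DMSO and 5.35 with lamotrigine. It was low with both drugs, at -0.60 and -0.67. Slc26a8, beside Mapk14, was not well above background with valproate or DMSO and gave no difference.

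Between the drugs, Rasgrp1 was 1.27 higher on the log2 scale with valproate than with lamotrigine, lying 0.74 above DMSO in one and 0.53 below it in the other.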
